A study of Mus musculus with 6 samples.

Results

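Collagen genes were taken as every gene whose symbol in the deposited table has the form Col, a number, a and a number, which gave 44 of 24062 gene symbols. They were grouped by the known assembly of their products into 11 fibrillar collagens, 6 basement membrane (type IV) collagens, 9 fibril-associated collagens with interrupted triple helices (FACIT) and 18 other collagens. RNA was sequenced from microdissected auditory nerve of young adult mice of the C57BL/6 strain, 3 Vcan knockout and 3 wildtype, with 1 mouse per library and its 2 cochleae pooled. Vcan encodes versican, a chondroitin sulfate proteoglycan of the extracellular matrix, and the labels name neither the altered exons nor any promoter, Cre driver or littermate relation. The libraries are called knockout 1 to 3 and wildtype 1 to 3 after the numbers in the sample titles. Each value of spread is therefore a spread between mice that includes their dissection.

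Collagens are proteins of 3 chains wound into a triple helix, which needs a glycine at the start of every residue triplet of each chain. Fibrillar collagens form the tensile fibrils of the endoneurium, perineurium, bone and cartilage, FACIT collagens sit on the surface of those fibrils, and type IV collagen forms the sheet-like network of the basal lamina that Schwann cells and blood vessels rest on. In the inner ear, collagens of types II, IX and XI are also known from the tectorial membrane and the otic capsule, and chains of types IV and XI are encoded by deafness genes.

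The glycine repeat can be read in the coding sequences, and the stretches printed here are the genes that the results below turn on most. Each is the first 54 bases of the longest unbroken run of glycine triplets in the longest coding sequence of the gene (GENCODE vM21 transcripts of GRCm38, sense strand, 5′ to 3′). Capitals mark the glycine codon, GGN, that opens every triplet.
Col11a2: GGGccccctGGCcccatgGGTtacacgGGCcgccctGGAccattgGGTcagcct
Col1a1: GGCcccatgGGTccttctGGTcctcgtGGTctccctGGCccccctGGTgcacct
Col1a2: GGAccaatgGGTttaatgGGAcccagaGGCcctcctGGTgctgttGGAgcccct
Col3a1: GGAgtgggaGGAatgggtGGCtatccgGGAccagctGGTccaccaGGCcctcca
Col4a3: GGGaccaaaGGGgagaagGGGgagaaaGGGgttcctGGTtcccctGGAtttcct
Col4a4: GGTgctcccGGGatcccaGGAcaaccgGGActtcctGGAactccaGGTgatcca
Col9a2: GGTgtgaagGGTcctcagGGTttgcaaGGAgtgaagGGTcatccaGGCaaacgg
Col9a3: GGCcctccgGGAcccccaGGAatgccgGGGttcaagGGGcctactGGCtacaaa
Col19a1: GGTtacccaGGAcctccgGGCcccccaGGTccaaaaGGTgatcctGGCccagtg
Col28a1: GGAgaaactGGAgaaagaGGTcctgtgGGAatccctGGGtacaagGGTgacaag
Col6a6: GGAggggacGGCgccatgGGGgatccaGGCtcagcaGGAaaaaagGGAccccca

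The classes differed in how long that repeat ran. In 9 of the 11 fibrillar genes it was unbroken for 337 to 344 triplets, and in the other two, Col24a1 and Col27a1, for 216 and 217. The 6 type IV genes had a longest run of only 39 to 66 triplets, but 15 to 24 separate runs of at least 6 triplets each. Among FACIT genes the longest run was 113 triplets in Col9a1, Col9a2, Col9a3 and Col22a1, and 32 in Col12a1, Col14a1 and Col20a1. Glycine took 31.2% of the codons of Col9a3, the highest share of the 44, against 9.07% in Col6a3, a long type VI chain made mostly of domains outside the helix.

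**Figure D1:**
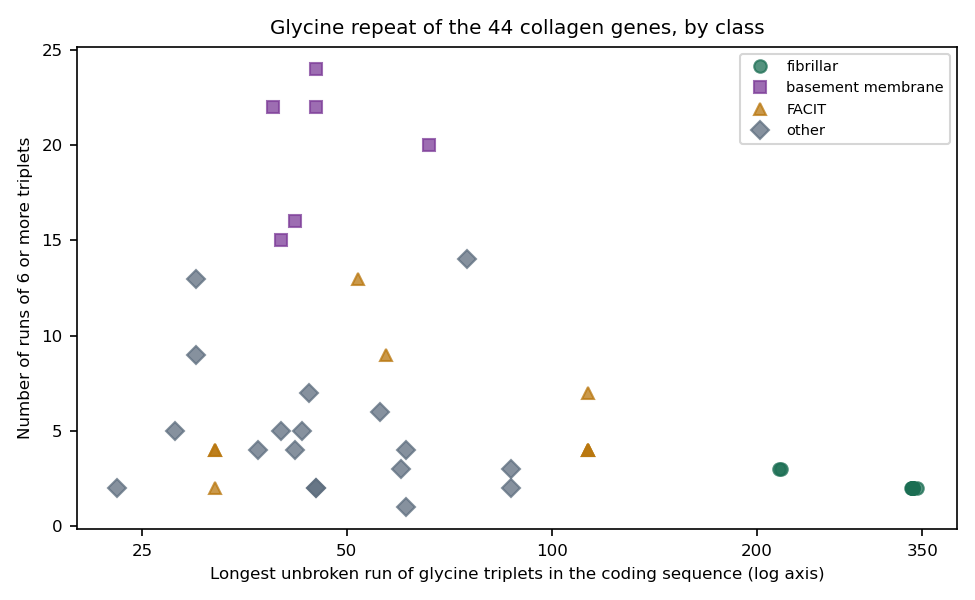
Each point is 1 of the 44 collagen genes, placed by its longest unbroken run of glycine triplets (horizontal, log axis) and by its number of runs of at least 6 triplets (vertical), with shape and colour for the class. Fibrillar genes stand at the right, with 216 to 344 triplets in the longest of their 2 or 3 runs, and type IV genes at the upper left with 15 to 24 shorter runs.

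The libraries held 74530860 to 92513887 counts assigned to genes. Vcan had 5.44, 2.70 and 2.88 CPM (TMM-scaled counts per 1000000 counts of the library) in knockout 1, 2 and 3, against 8.36, 9.61 and 7.32 CPM in wildtype 1, 2 and 3. All knockout libraries were below all wildtype libraries, with a log2 fold change of -1.20 (SE 0.32) and an adjusted p of 0.558 by edgeR's quasi-likelihood test, or 0.0390 by DESeq2. Markers of Schwann cells (7 of 7 genes) and spiral ganglion neurons (8 of 8) were present in all libraries, and so were the listed markers of bone (10 of 10), cartilage (7 of 8), fibroblasts (7 of 7) and otic epithelium or fibrocytes (6 of 6). The exception was the cartilage gene Matn3, with at most 1 count in any library. RNA of tissue around the nerve was thus present, and in bulk RNA fewer cells of a type cannot be told apart from less RNA per cell. Wildtype 3 stood apart from the other libraries: its correlations with them were 0.958 to 0.965 on log2 CPM over genes, where other pairs reached 0.993, and its summed neuron markers were 7097 CPM against 12009 to 13779 CPM in the knockout libraries and 12240 to 12636 CPM in wildtype 1 and 2.

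No collagen gene passed an adjusted p of 0.05 between knockout and wildtype nerve. Of the 44 genes, 42 had enough counts to be tested, and the lowest adjusted p among them was 0.600 in edgeR and 0.0875 in DESeq2, which called 0 collagens as well. Over all 16722 genes tested, edgeR called 23 (0.138%), with 11 higher (0.0658%) and 12 lower (0.0718%) in knockout nerve, and DESeq2 called 1.43% of genes. At an unadjusted p under 0.05 edgeR picked out 5 collagens (11.9%), of which Col19a1 and Col6a6 were higher and Col3a1, Col4a3 and Col28a1 lower in knockout nerve, beside a background of 5.20% of all genes (2.56% higher and 2.64% lower). DESeq2 gave 7 collagens at the unadjusted threshold, against 6.63% of all genes. The authors' deposited table gave 7 too, against 5.49% of its genes, with 0 collagens past the adjusted threshold that 1.34% of its genes passed. In 3 of 42 collagens (7.14%) the knockout and wildtype libraries did not overlap, against 10.3% of all genes.

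Fold changes of the collagens were mostly small and below 0. The log2 fold change was negative for 29 of 42 (69.0%), against 51.1% of all genes tested, and its median was -0.14, against -0.01 for all genes. By class, it was negative for 9 of 11 fibrillar genes with a median of -0.22, for 6 of 6 type IV genes with a median of -0.26, for 4 of 9 FACIT genes with a median of 0.07, and for 10 of 16 other collagens with a median of -0.05. The median over the collagens moved with single libraries: it was -0.34 without knockout 1 and -0.07 without wildtype 1. The 95% interval of the log2 fold change reached 0.64 to either side for the median collagen, and for 25 of 42 it excluded a 2-fold change in both directions.

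Beside these values, the sums of some cell type marker lists did not overlap between the groups, and 4 of those lists are given first here. The fibroblast list, also without overlap, is given below with Col3a1. Oligodendrocyte markers summed to 167 to 219 CPM in knockout and 222 to 448 CPM in wildtype libraries (5 of 5 genes negative). The largest part of that sum was Mobp, at means of 113 CPM in knockout and 209 CPM in wildtype nerve. Opalin, counted as negative, was level at 0.558 and 0.563 CPM. Astrocyte markers summed to 261.7 to 453.5 CPM in knockout and 453.9 to 973 CPM in wildtype libraries (4 of 4 negative). Macrophage markers summed to 90.9 to 116 CPM in knockout and 122 to 137 CPM in wildtype libraries (3 of 5 negative), and endothelial markers to 196 to 209 CPM in knockout and 171 to 178 CPM in wildtype libraries (2 of 5 negative). Most of the endothelial difference was Cldn5, at a mean of 73.4 CPM in knockout and 38.3 CPM in wildtype nerve. Tek (30.0 and 27.1 CPM) and Kdr (18.2 and 17.8 CPM) were slightly higher in knockout nerve. Pecam1 (32.8 and 38.2 CPM) and Cdh5 (49.4 and 53.5 CPM) were lower. No gene of these 4 lists was at 0 or passed in edgeR. In DESeq2 the oligodendrocyte gene Enpp6 and the astrocyte gene Aqp4 did, both lower in knockout nerve (adjusted p 5.41e-05 and 0.0033). Vessel mural markers overlapped, at summed 223 to 309 CPM in knockout and 258 to 383 CPM in wildtype libraries (5 of 6 negative). Among them Rgs5 was at 41.8 ± 12.7 CPM in knockout and 84.7 ± 27.5 CPM in wildtype nerve, without overlap. Its log2 fold change was -1.02 (unadjusted p 0.0122, adjusted p 0.631 by edgeR), and that of Acta2 was 0.15. The part of all these markers in the collagen values was not tested.

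**Figure D2:**
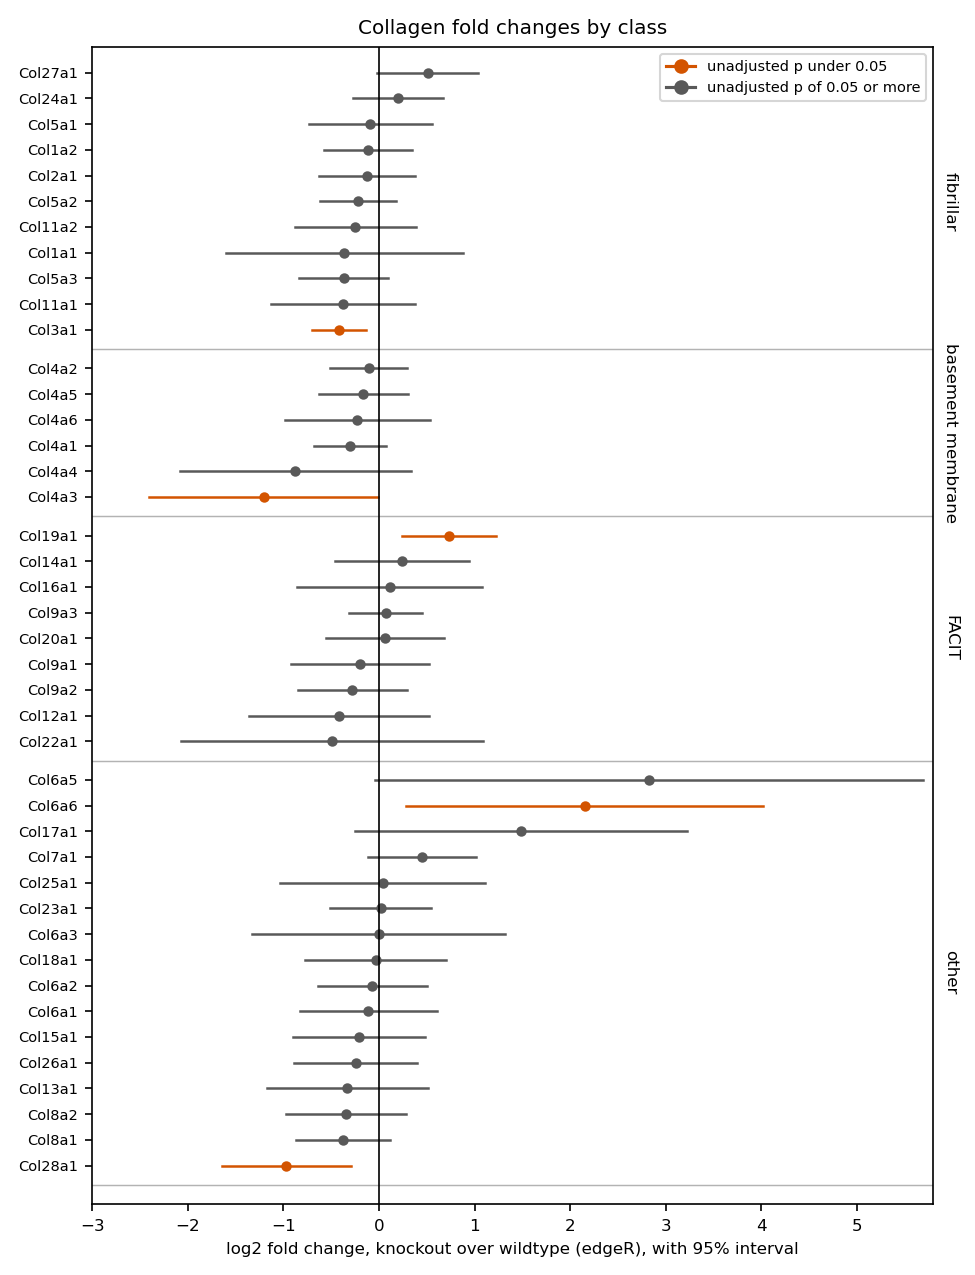
Log2 fold change of knockout over wildtype for the 42 collagens tested, ordered within class, with the 95% interval from edgeR as a line; orange marks the 5 genes with an unadjusted p under 0.05, none of which passed after adjustment. Points lie mostly just left of 0 in the fibrillar and type IV classes, and the widest intervals belong to the scarce chains Col6a5, Col6a6 and Col17a1.

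Fibrillar collagens held the largest part of the collagen RNA. Scaled by exon length, summed levels of the 11 genes were 206 ± 14.7 CPM per kb in knockout and 230 ± 34.3 in wildtype nerve (SD, n = 3 each), or 48.5 to 50.6% of the collagen total in knockout and 49.0 to 51.1% in wildtype libraries. The most abundant was Col11a2, the type XI chain that sets fibril width in cartilage and the tectorial membrane, at 77.7 ± 7.14 CPM per kb in knockout and 92.3 ± 33.0 in wildtype nerve. Col1a2, the second chain of type I collagen, followed at 44.9 ± 4.96 and 48.7 ± 9.11 CPM per kb in knockout and wildtype nerve. With the longest transcript of each gene as the length, Col1a2 stood above Col11a2, at 109 and 96.6 CPM per kb over the 6 libraries.

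**Figure D3:**
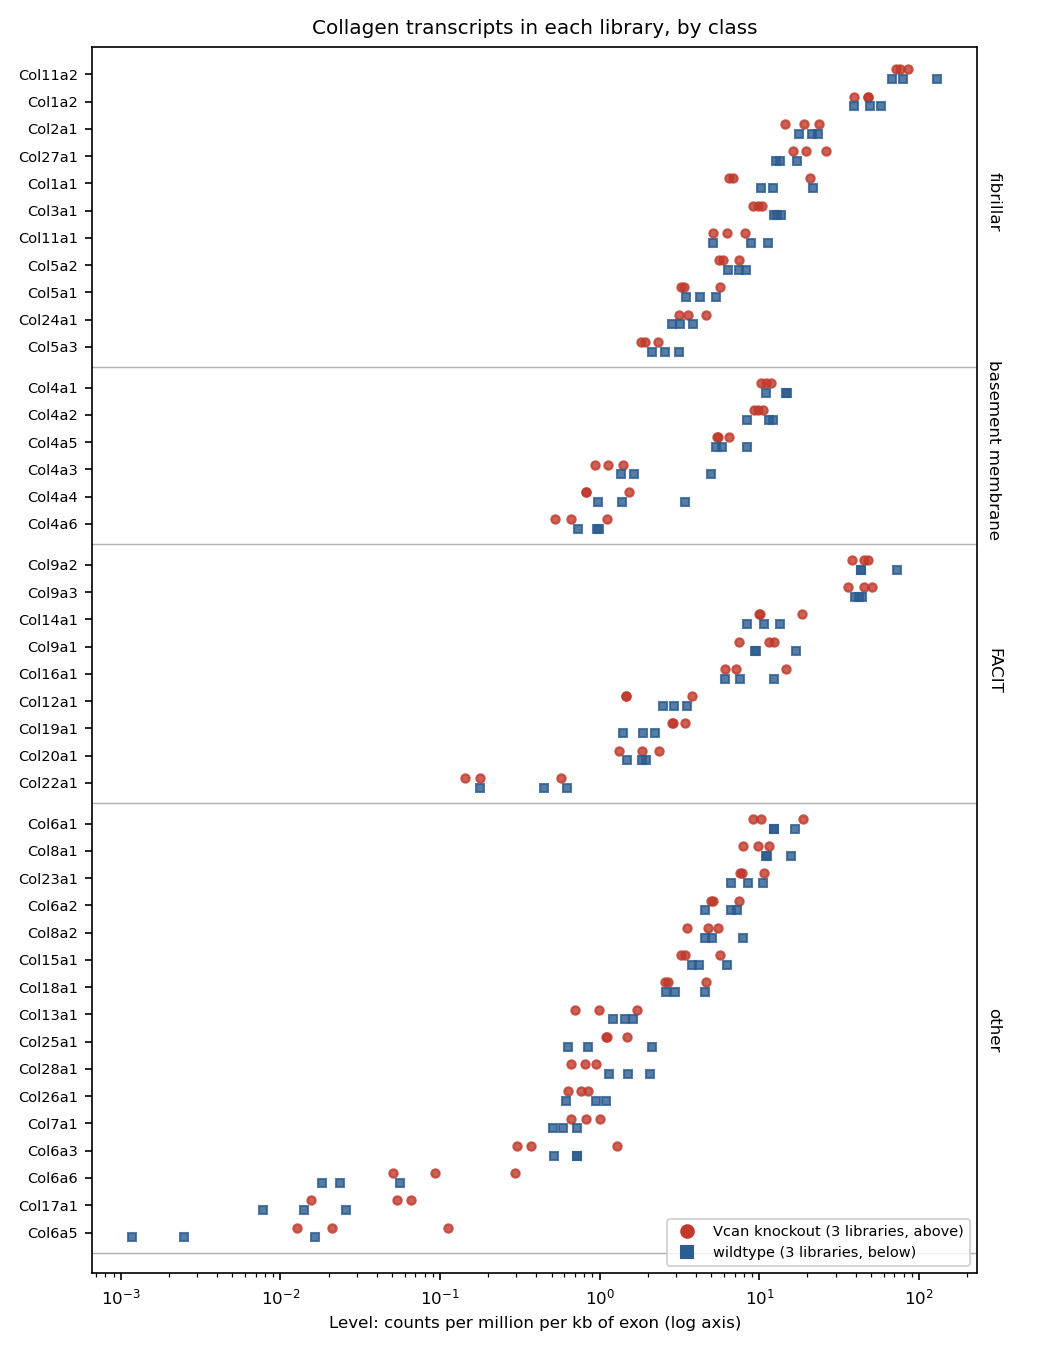
Level of each tested collagen in each library, in CPM per kb of exon on a log axis, with knockout libraries as red circles above wildtype libraries as blue squares. Levels span from Col11a2 at the top of the fibrillar class to Col6a5, and the red and blue points overlap in all genes except Col3a1 and Col28a1 (knockout lower) and Col19a1 (knockout higher).

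Col3a1, the type III chain of extensible tissues such as vessel walls and endoneurium (chromosome 1, 45311538 to 45349706, GRCm38), had 96.3, 89.0 and 101 CPM in knockout 1, 2 and 3, against 134, 121 and 127 CPM in wildtype 1, 2 and 3. Every knockout library lay below every wildtype library. The log2 fold change was -0.41 (SE 0.12), with an unadjusted p of 0.0108 and an adjusted p of 0.617 by edgeR, and it stayed between -0.46 and -0.37 when any 1 library was left out. The fibroblast marker list summed to 896 to 1056 CPM in knockout libraries, against 1146 to 1238 CPM in wildtype libraries, with 4 of its 7 genes negative, 0 called and none at 0. Most of the sum was Dcn, at 576 to 788 CPM in knockout and 800 to 937 CPM in wildtype libraries. Lum was likewise below wildtype in every knockout library, whereas Mfap5 and Pi16 were above wildtype in every knockout library (log2 fold changes 0.65 and 0.93, adjusted p 0.881 and 0.783 by edgeR). The part of these genes in the Col3a1 difference was not tested.

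Type I collagen, which builds the fibrils of bone, skin and nerve sheath, overlapped between the groups. Col1a2 (chromosome 6, 4505618 to 4541543) had 486, 592 and 594 CPM in knockout 1, 2 and 3, and 714, 613 and 488 CPM in wildtype 1, 2 and 3. The lowest values were those of knockout 1 and wildtype 3 (log2 fold change -0.12, SE 0.19, adjusted p 1.00 by edgeR). Its partner chain Col1a1 (chromosome 11, 94936224 to 94953042) had 137, 42.6 and 44.8 CPM in knockout 1, 2 and 3, and 142, 66.8 and 79.5 CPM in wildtype 1, 2 and 3. Knockout 1 and wildtype 1 were the high libraries, and the fold change of -0.36 (SE 0.52) became -1.14 without knockout 1 and 0.03 without wildtype 1.

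Both type I chains share a trimer with more Col1a1 than Col1a2 protein, yet the RNA ran the other way in all 6 libraries. The ratio of Col1a1 to Col1a2, each per kb of exon, was 0.532, 0.136 and 0.143 in knockout 1, 2 and 3, and 0.376, 0.206 and 0.308 in wildtype 1, 2 and 3. It varied 3.91-fold between libraries, the widest range of the 10 chain pairs compared, and the groups overlapped. Means were 0.270 ± 0.227 in knockout and 0.297 ± 0.0853 in wildtype nerve.

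Cartilage fibrils are made of type II and type XI chains. Col11a2 (chromosome 17, 34038919 to 34066684) had 521, 493 and 589 CPM in knockout 1, 2 and 3, and 547, 465 and 892 CPM in wildtype 1, 2 and 3. Wildtype 3 was high and the other 5 libraries overlapped, so that the log2 fold change of -0.25 (SE 0.27) became 0.07 without wildtype 3. Col2a1 (chromosome 15, 97975602 to 98004724) had 134, 175 and 219 CPM in knockout 1, 2 and 3, and 197, 164 and 214 CPM in wildtype 1, 2 and 3, with overlapping groups and a log2 fold change of -0.12 (SE 0.21). Col11a1 was at 0.0711 to 0.112 of Col11a2 per kb in all libraries. The chondrocyte marker list summed to 321 to 449 CPM in knockout libraries and to 427, 448 and 776 CPM in wildtype 1, 2 and 3, with 3 of its 8 genes highest in wildtype 3. The list gene with the most counts in wildtype 3 was Lect1 (an older symbol of Cnmd). It had 124, 159 and 174 CPM in knockout 1, 2 and 3, and 176, 204 and 456 CPM in wildtype 1, 2 and 3. No knockout library reached a wildtype library for Lect1, as in 4.93% of all genes (log2 fold change -0.87, unadjusted p 0.0560, adjusted p 0.992 by edgeR). Acan was level between wildtype 1 and 3, and Comp was lowest of the wildtype libraries in wildtype 3. Their part in the collagen values was not tested.

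The remaining fibrillar chains overlapped between groups. Col27a1, a cartilage fibrillar collagen with the shorter repeat, averaged 269 ± 65.9 CPM in knockout and 189 ± 31.8 CPM in wildtype nerve (log2 fold change 0.51, SE 0.22, unadjusted p 0.0557, adjusted p 0.992 by edgeR). Col5a1, Col5a2 and Col5a3, the type V chains that start fibril assembly and that Schwann cells are known to make, averaged 34.7 ± 11.5, 60.5 ± 9.37 and 13.7 ± 1.74 CPM in knockout nerve, against 36.9 ± 8.05, 70.4 ± 8.91 and 17.7 ± 3.37 CPM in wildtype nerve. Their log2 fold changes were -0.09, -0.22 and -0.37.

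All 6 type IV genes had negative fold changes, and none passed. Summed per kb, the class came to 31.5, 27.9 and 29.5 CPM per kb in knockout 1, 2 and 3, against 35.9, 27.8 and 44.8 CPM per kb in wildtype 1, 2 and 3. Wildtype 2 lay just below the lowest knockout library, and wildtype 3 was the highest library for 5 of the 6 genes, beside 26.0% of all genes tested. The class total was 29.6 ± 1.83 in knockout and 36.2 ± 8.47 in wildtype nerve, or 6.96 to 7.19% of collagen RNA in knockout and 7.11 to 8.56% in wildtype libraries.

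Col4a1 and Col4a2, the chains of the common basal lamina of vessels and Schwann cells, lie head to head on chromosome 8 (11198423 to 11312889 and 11312805 to 11449287). Col4a1 had 87.7, 76.2 and 82.4 CPM in knockout 1, 2 and 3, and 110, 81.9 and 112 CPM in wildtype 1, 2 and 3. Wildtype 2 fell inside the knockout range (log2 fold change -0.30, SE 0.16, unadjusted p 0.101, adjusted p 1.00 by edgeR). Col4a2 had 61.6, 65.1 and 69.4 CPM in knockout 1, 2 and 3, and 75.6, 55.6 and 80.3 CPM in wildtype 1, 2 and 3, again overlapping (log2 fold change -0.11, SE 0.17). Their ratio per kb stayed between 1.04 and 1.31 in all libraries, with means of 1.12 ± 0.126 in knockout and 1.28 ± 0.0375 in wildtype nerve.

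Col4a3 and Col4a4 encode chains that join Col4a5 in the mature type IV network of kidney and cochlea, and mutations in all 3 cause Alport syndrome with hearing loss. Col4a3 (chromosome 1, 82586921 to 82722059) had 13.9, 9.32 and 11.2 CPM in knockout 1, 2 and 3, against 16.4, 13.6 and 49.3 CPM in wildtype 1, 2 and 3. Knockout 1 lay above wildtype 2, and wildtype 3 was at 3.29 times the mean of the other wildtype libraries. The log2 fold change of -1.20 (SE 0.50, unadjusted p 0.0493, adjusted p 0.957 by edgeR) became -0.39 without wildtype 3.

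Its neighbour Col4a4 (chromosome 1, 82448419 to 82587034) was also high in wildtype 3, with 16.1, 8.71 and 8.68 CPM in knockout 1, 2 and 3, against 14.6, 10.4 and 36.4 CPM in wildtype 1, 2 and 3. That library was at 2.91 times the mean of wildtype 1 and 2, and the log2 fold change of -0.87 (SE 0.51) became -0.17 without it. The ratio of Col4a3 to Col4a4 per kb nevertheless stayed between 0.917 and 1.44, while the level of Col4a3 differed 5.29-fold and that of Col4a4 4.20-fold between libraries. Perineurium markers (3 of 3 genes, none at 0) summed to 197 to 204 CPM in knockout libraries and to 201, 191 and 403 CPM in wildtype 1, 2 and 3. The high sum was that of Slc2a1, a glucose transporter, with 124, 121 and 361 CPM in wildtype 1, 2 and 3, while Itgb4 (70.2, 65.1 and 39.1 CPM) and Cldn1 (6.80, 4.33 and 2.68 CPM) were lowest of the wildtype libraries in wildtype 3. Markers of otic epithelium or fibrocytes summed to 8641 to 18365 CPM in knockout libraries. In wildtype 1, 2 and 3 they summed to 10526, 12718 and 19556 CPM. Of these 6 genes, 4 were highest in wildtype 3 and 0 were lowest there. Slc26a4 of that list was in wildtype 3 at 5.29 times the mean of wildtype 1 and 2. Of the 10 bone markers, 5 were highest and 2 were lowest in wildtype 3. The part of all these genes in the wildtype 3 values of Col4a3, Col4a4 or other collagens was not tested.

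The X-linked pair was less abundant in its second member. Col4a5 (141475370 to 141689236) had 43.5, 36.5 and 37.1 CPM in knockout 1, 2 and 3, and 39.2, 36.1 and 55.8 CPM in wildtype 1, 2 and 3, with overlapping groups and a high wildtype 3. Col4a6 (141165403 to 141474095), which joins Col4a5 in smooth muscle basal laminae, had 8.80, 5.30 and 4.18 CPM in knockout 1, 2 and 3, and 7.63, 5.83 and 7.90 CPM in wildtype 1, 2 and 3. Knockout 1 was here the highest library. Per kb, Col4a5 stood at 5.86 to 10.5 times Col4a6, and the log2 fold changes were -0.16 (SE 0.20) for Col4a5 and -0.23 (SE 0.32) for Col4a6.

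**Figure D4:**
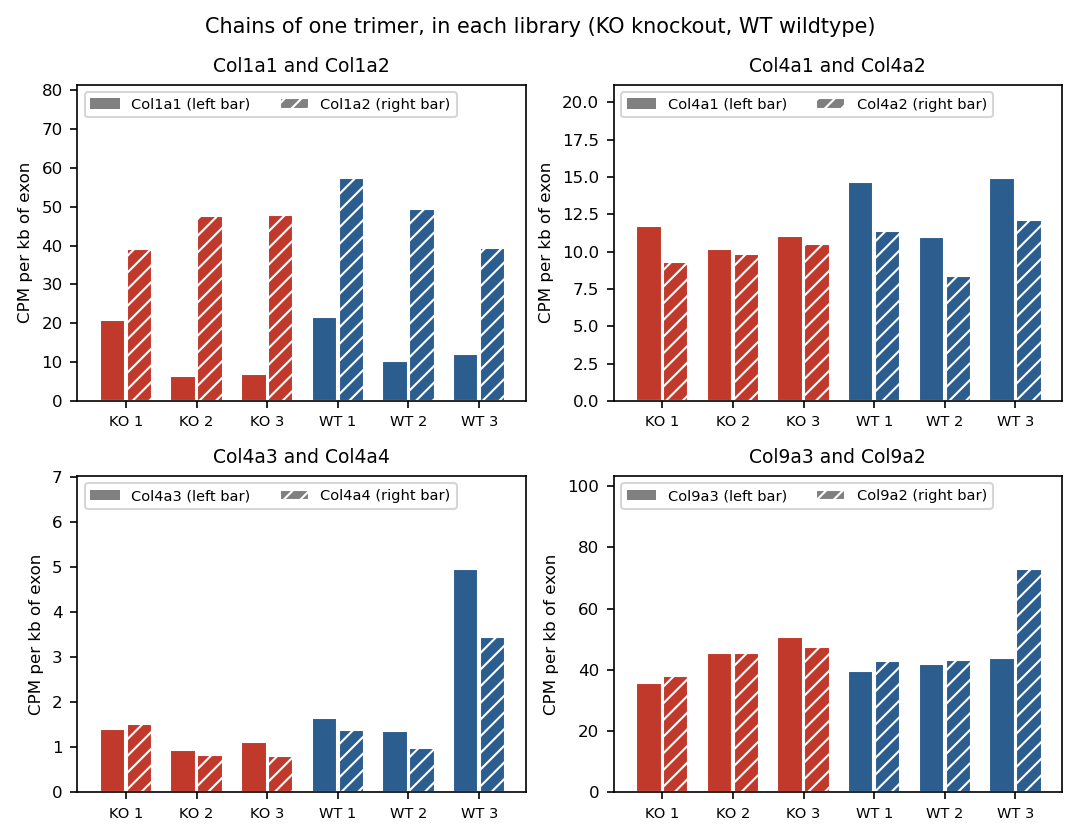
Levels in CPM per kb of exon for 4 pairs of chains that share a trimer, with plain and hatched bars for the 2 chains in each of the 3 knockout (KO, red) and 3 wildtype (WT, blue) libraries. Col4a1 and Col4a2 stay close to each other, Col4a3 and Col4a4 are both high in wildtype 3, Col1a1 is below Col1a2 throughout, and Col9a2 alone of its pair is high in wildtype 3.

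FACIT collagens came second in level, at a summed 128 ± 5.67 CPM per kb in knockout and 133 ± 21.3 in wildtype nerve. Most of it was type IX collagen, which coats type II fibrils in cartilage and the tectorial membrane. Col9a2 (chromosome 4, 121039566 to 121055325) had 117, 141 and 147 CPM in knockout 1, 2 and 3, and 133, 133 and 225 CPM in wildtype 1, 2 and 3. Only wildtype 3 lay outside the knockout range, and the log2 fold change of -0.28 (SE 0.24) became 0.01 without it.

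Col9a3 (chromosome 2, 180598102 to 180622192) had 138, 175 and 196 CPM in knockout 1, 2 and 3, and 153, 162 and 169 CPM in wildtype 1, 2 and 3. The wildtype libraries fell inside the knockout range, and the log2 fold change was 0.07 (SE 0.16). The ratio of Col9a3 to Col9a2 per kb was 0.943, 0.996 and 1.07 in knockout 1, 2 and 3, against 0.924, 0.976 and 0.603 in wildtype 1, 2 and 3. In wildtype 3 only Col9a2 of this pair was high, while Col4a3 and Col4a4 were both high there. Col9a1, the remaining type IX chain, was high in wildtype 3 as well, at 1.80 times the mean of wildtype 1 and 2, beside 1.69 for Col9a2. The ratio of Col9a1 to Col9a2 per kb stayed between 0.195 and 0.259 in all libraries, so that Col9a3 was the type IX chain that did not rise with the others. Up to 6.07% of the exon bases of Col9a3 are shared with Tcfl5, and whether counting used strand is not given.

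Col19a1, a FACIT-like chain known from basement membrane zones, muscle and some brain interneurons (chromosome 1, 24257683 to 24587922), had 23.5, 19.7 and 19.6 CPM in knockout 1, 2 and 3, against 15.2, 12.9 and 9.66 CPM in wildtype 1, 2 and 3. It was the one collagen whose knockout libraries all lay above the wildtype libraries, where 5.42% of all genes did so. The log2 fold change was 0.73 (SE 0.21, unadjusted p 0.00974, adjusted p 0.600 by edgeR), and it ranged from 0.57 to 0.89 as single libraries were left out. Without both knockout 1 and wildtype 3 it was 0.48.

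Col14a1, which binds fibrils in tendon and skin (chromosome 15, 55307644 to 55520803), had 129, 69.8 and 70.4 CPM in knockout 1, 2 and 3, and 93.8, 59.0 and 75.3 CPM in wildtype 1, 2 and 3. Knockout 1 was high and the groups overlapped, so that its log2 fold change of 0.24 (SE 0.29) became -0.12 without knockout 1. Col12a1 and Col16a1, its relatives of dense connective tissue, were also highest in knockout 1, at 2.58 and 2.22 times the means of knockout 2 and 3.

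The other collagens summed to 54.6 ± 14.7 CPM per kb in knockout and 61.5 ± 6.03 in wildtype nerve, with 71.6, 46.6 and 45.7 CPM per kb in knockout 1, 2 and 3. Col6a1, a chain of the beaded filaments that surround peripheral nerve fibres (chromosome 10, 76708792 to 76726044), had 82.5, 44.8 and 40.0 CPM in knockout 1, 2 and 3, and 73.2, 54.1 and 53.7 CPM in wildtype 1, 2 and 3. Its highest value was in knockout 1 and its lowest in knockout 2 and 3, with a log2 fold change of -0.11 (SE 0.30) that became -0.51 without knockout 1. Col6a3, the long chain of the same trimer, was at 0.0332 to 0.0677 of Col6a1 per kb.

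Col6a6 is an alternative type VI chain that was scarce here (chromosome 9, 105689417 to 105828246). It had 2.69, 0.856 and 0.464 CPM in knockout 1, 2 and 3, from 204, 79 and 40 counts, against 0.216, 0.167 and 0.515 CPM in wildtype 1, 2 and 3, from 18, 15 and 44 counts. Knockout 1 was far above the rest, and wildtype 3 was above knockout 3. The log2 fold change of 2.15 (SE 0.78, unadjusted p 0.0299, adjusted p 0.842 by edgeR) became 1.14 without knockout 1. Its neighbour Col6a5 averaged 0.457 ± 0.519 CPM in knockout and 0.0635 ± 0.0803 CPM in wildtype nerve, also with the highest value in knockout 1 (unadjusted p 0.0528, adjusted p 0.976 by edgeR).

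Col28a1, a collagen with von Willebrand factor domains that is known from the basal lamina around peripheral glia (chromosome 6, 7997100 to 8193709), had 4.63, 3.94 and 3.26 CPM in knockout 1, 2 and 3, against 10.2, 7.37 and 5.64 CPM in wildtype 1, 2 and 3. The groups did not overlap, as in 4.93% of all genes with knockout below wildtype. The log2 fold change was -0.97 (SE 0.28, unadjusted p 0.0116, adjusted p 0.625 by edgeR and 0.0875 by DESeq2), and -0.72 to -1.16 as single libraries were left out. Schwann cell markers summed to 7698 to 10717 CPM in knockout and 7433 to 13381 CPM in wildtype libraries, with 5 of 7 negative, 0 called and none at 0, and their part in this difference was not tested.

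Col8a1, a short-chain collagen of vessel walls and corneal endothelium (chromosome 16, 57624256 to 57754737), had 89.5, 62.0 and 77.2 CPM in knockout 1, 2 and 3, and 87.2, 86.3 and 124 CPM in wildtype 1, 2 and 3. The groups overlapped through knockout 1 (log2 fold change -0.38, SE 0.21). Col23a1, a transmembrane collagen (chromosome 11, 51289679 to 51583925), had 61.3, 44.4 and 43.3 CPM in knockout 1, 2 and 3, and 60.3, 48.8 and 38.0 CPM in wildtype 1, 2 and 3. Its groups overlapped, with a log2 fold change of 0.02 (SE 0.22). Col25a1, a transmembrane collagen of neurons, averaged 15.9 ± 2.89 CPM in knockout and 15.5 ± 10.4 CPM in wildtype nerve, with wildtype 3 at 2.87 times the mean of wildtype 1 and 2.

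The scarcest members were Col10a1, the collagen of hypertrophic cartilage, and Col6a4. Col10a1 had 3, 8 and 11 counts in knockout 1, 2 and 3, and 1, 1 and 10 counts in wildtype 1, 2 and 3. Col6a4 had 9, 5 and 6 counts in knockout 1, 2 and 3, and 1, 5 and 0 counts in wildtype 1, 2 and 3. Neither passed the filter on low counts, and both groups were near 0 for both genes.

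Some libraries were high or low across many collagens. Knockout 1 was the highest of the 6 libraries for 19 of 42 collagens (45.2%), where it was highest for 19.6% of all genes, and wildtype 3 was highest for 13 (31.0%), where it was for 26.0%. Relative to each gene's mean over libraries, the median collagen was at 0.34, -0.24 and -0.19 on the log2 scale in knockout 1, 2 and 3, and at 0.17, -0.16 and 0.14 in wildtype 1, 2 and 3. Transcript length moved with these values, and its part in them was tested only by removing the trend. Over 16440 genes, a gene's deviation in a library correlated with its transcript length with a Spearman's rho of 0.415, -0.414 and -0.333 in knockout 1, 2 and 3, and of 0.386, -0.301 and 0.067 in wildtype 1, 2 and 3 (a description across genes, which are not independent). Collagen transcripts are long, at a median of 5989 bases for the longest transcript against 3251 bases for all genes tested.

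With each library's length trend removed, the median collagen was at 0.14, -0.11 and -0.05 in knockout 1, 2 and 3, and at 0.03, -0.08 and 0.11 in wildtype 1, 2 and 3. Knockout 1 was then highest for 10 collagens and wildtype 3 for 15. The shares of all genes after the same removal were not computed, so no excess or loss of excess can be read from these counts. Fitted with the length trend as an offset, edgeR called 0 collagens (lowest adjusted p 0.330), beside 0.167% of all genes. At an unadjusted p under 0.05 there were 7 collagens, of which 4 were also under it without the offset, beside 6.13% of all genes. The median log2 fold change was -0.11, against -0.01 for all genes.

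**Figure D5:**
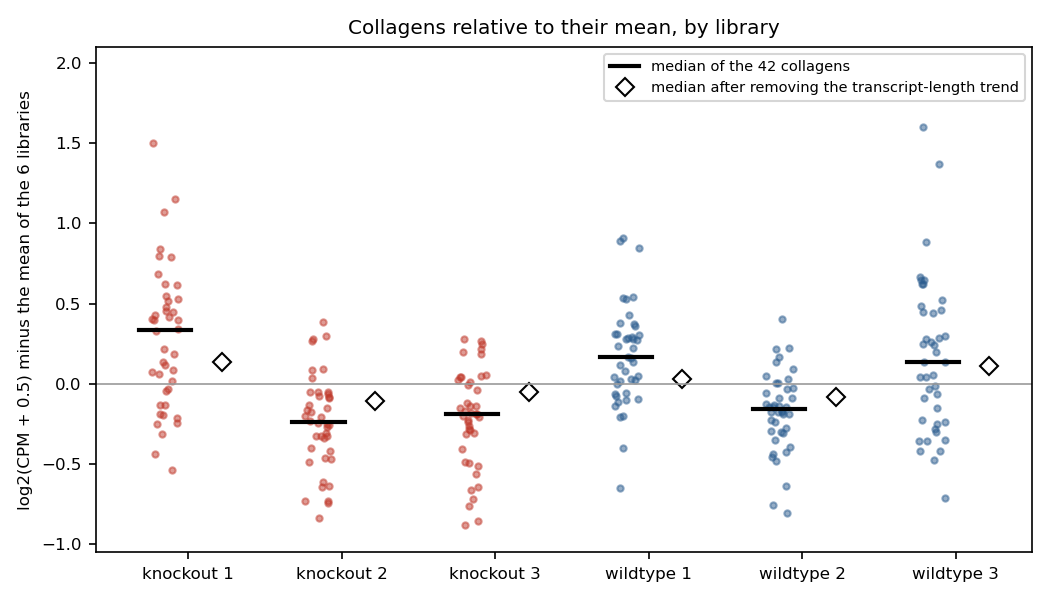
Each point is 1 of the 42 tested collagens in 1 library, as log2(CPM + 0.5) minus the gene's mean over the 6 libraries; black bars are medians and diamonds are medians after the library's trend with transcript length was removed. Medians run from -0.24 in knockout 2 to 0.34 in knockout 1, and from -0.11 to 0.14 with the trend removed.

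The enzymes and receptors that act on collagen showed no called gene either. Of 47 listed genes, 45 were tested, and edgeR gave 0 with an adjusted p under 0.05 and 1 with an unadjusted p under 0.05, beside the 0.138% and 5.20% of all genes. Fold changes were negative for 33 of 45, against 51.1% of all genes tested, and their median log2 value was -0.13, against -0.01 for all genes. By list, 15 of 21 genes of folding, modification and export were negative (median -0.06), 5 of 8 of propeptide removal (-0.11), 4 of 5 of crosslinking (-0.21) and 9 of 11 receptors (-0.21).

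That 1 gene was Ddr1, a receptor tyrosine kinase activated by triple-helical collagen. It had 72.2, 79.9 and 79.0 CPM in knockout 1, 2 and 3, against 92.6, 98.96 and 94.97 CPM in wildtype 1, 2 and 3. No knockout library reached a wildtype library, as in 4.93% of all genes, and the log2 fold change was -0.31 (SE 0.11, unadjusted p 0.0293, adjusted p 0.842 by edgeR). Its relative Ddr2, the receptor of fibroblasts and other mesenchymal cells, overlapped between groups at 150 ± 24.0 CPM in knockout and 173 ± 27.4 CPM in wildtype nerve. Itgb1, the beta subunit of the collagen-binding integrins, averaged 291 ± 23.2 and 331 ± 55.9 CPM in knockout and wildtype nerve. Of the other listed genes, Loxl2 and Plod1 were also below wildtype in every knockout library (log2 fold changes -1.12 and -0.31). Loxl2 in wildtype 3 was at 3.11 times the mean of wildtype 1 and 2. P4ha3 and Pcolce were above wildtype in every knockout library (0.44 and 0.19), as were 5.42% of all genes. Unadjusted p for these genes was 0.0582 to 0.218 by edgeR.

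The 2 most abundant genes of the folding, modification and export list were close between groups. P4hb, a subunit of the enzyme that hydroxylates proline in collagen, averaged 258 ± 15.5 CPM in knockout and 269 ± 41.5 CPM in wildtype nerve, and Serpinh1, the collagen chaperone of the endoplasmic reticulum, 156 ± 23.5 CPM in knockout and 163 ± 19.8 CPM in wildtype nerve. Bmp1, the protease that removes the C-propeptide, averaged 40.7 ± 2.56 CPM in knockout and 46.6 ± 5.50 CPM in wildtype nerve, and its enhancer Pcolce 67.2 ± 4.35 CPM in knockout and 59.1 ± 6.70 CPM in wildtype nerve. The crosslinking enzymes Lox and Loxl1 averaged 59.3 ± 11.3 and 18.8 ± 1.96 CPM in knockout nerve, against 72.6 ± 32.3 and 18.8 ± 5.94 CPM in wildtype nerve, both with the highest value in wildtype 3.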

How the data were processed

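The build mm10 and the tools HTSeq and DESeq2 are named, without versions, in the submitters' processing notes. No source used here gives the aligner or the strand setting. The deposited table holds raw counts per gene and library. The authors' comparison stands beside them. Its deposited columns, per the file headers, are the mean normalised signal, the log2 fold change and its error, the score of the test, and the raw and adjusted p-values. Of these the counts of p-values past the threshold are quoted, with the authors' table named.

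All genes were fitted in R 4.3.3 with edgeR 4.0.16 (filterByExpr, TMM, robust quasi-likelihood F test, 2-sided, Benjamini-Hochberg over 16722 genes, threshold 0.05). DESeq2 1.42.0 was the other tool. The pipeline was tested on simulated data. CPM is TMM-scaled, and ± is the SD over 3 mice. Levels per kb use merged exons of GENCODE vM21, or the longest transcript as an alternative. Gene positions are those of RefSeq on GRCm38 (mm10). The mice of a group were separate, and replicate counts differed by at least 39.9 times sampling noise (chi-square per degree of freedom). Intervals from the fit are for the difference between the groups, with an error that rests on the spread between these mice.

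Values in every library are given for collagens past the adjusted or the unadjusted threshold, the 3 highest per kb in each class, all type IV chains, and of the pathway lists the members past the unadjusted threshold, while the 2 highest of each list are given as means. Col1a1 was added as the partner of Col1a2. The members, lists and rule were chosen with earlier results of these data known. The transcript-length offset, and leaving out knockout 1 and wildtype 3 together, were chosen after seeing the data. Of the pathway genes, 7 were matched by an older symbol, and Gp6 and Mia2 had too few counts.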

Additional observations from a re-analysis of the deposited data

How the results depend on the processing

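No collagen and no listed pathway gene passed an adjusted p of 0.05 in any fit run. The number of genes called over the whole table moved more, between 23 as reported, 238 with DESeq2, 83 without knockout 1 and wildtype 3, and 3 to 14 with 1 library left out. With the replicate block, 3 genes were called, and 3 with the transcript-length offset and the replicate block together. The block was not used in the main fit because the labels give no batch and the numbers in the titles only name the mice. In the deposited column headers, the mouse numbers of the knockout libraries differ in part from those of the titles. Those headers also carry a running number per library, in separate ranges for knockout and wildtype. What it stands for is not given, and it cannot be told apart from genotype. Libraries with the same title number deviated from their group means with correlations of 0.478, 0.320 and -0.160, and knockout 3 correlated best with wildtype 2. The median collagen fold change was -0.17 with the block and -0.29 without knockout 1 and wildtype 3.

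Without knockout 1 and wildtype 3, directions turned for Col11a2 (0.10), Col2a1 (0.12), Col4a2 (0.036), Col9a2 (0.11), Col14a1 (-0.12), Col23a1 (-0.32), Lox (0.27), P4hb (0.10) and Itgb1 (0.011), all log2 fold changes. Loxl1 turned to -0.0024 with DESeq2, -0.0024 with DESeq2 size factors, -0.0097 with no filter on low counts and -0.024 with the transcript-length offset. With 1 library left out, ranges that crossed 0 were -0.43 to 0.071 for Col11a2, -0.26 to 0.018 for Col1a2, -0.32 to 0.039 for Col2a1, -0.28 to 0.043 for Col4a5, -0.41 to 0.014 for Col9a2, -0.055 to 0.20 for Col9a3, -0.12 to 0.42 for Col14a1, -0.51 to 0.071 for Col6a1, -0.16 to 0.19 for Col23a1, -1.14 to 0.030 for Col1a1, -0.52 to 0.12 for Lox, -0.16 to 0.28 for Loxl1, -0.17 to 0.050 for P4hb and -0.17 to 0.051 for Serpinh1. On the log2 scale, the knockout over wildtype difference in the ratio of Col1a1 to Col1a2 ranged from -1.09 without knockout 1 to 0.19, against -0.13 with all libraries. The causes were not tested. With 3 mice a group, the 95% interval of the log2 fold change reached 0.64 to either side for the median collagen, so small differences could have been missed.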
